A study of Mus musculus with 8 samples.

Results

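Nt5e, Entpd1, P2rx7, Cd38, Adora2a, Art2b, Ada and Slc29a1 are 8 mouse genes whose products sense, make or remove extracellular ATP, NAD and adenosine. They were matched by symbol, and all 8 were found in both deposited count tables, the CD8 T cell table of 17642 genes and the ILC2 table of 18389 genes (19805 symbols in all). They were chosen by their role and on their CPM and log2 changes in the co-cultured against alone contrast of these same libraries, so their values and changes in that contrast are given as a description, without a test.

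The study sequenced bulk RNA of CD8 T cells from spleen and of group 2 innate lymphoid cells (ILC2s, cells of the innate immune system that live in tissues and secrete type 2 cytokines) from lung. The mice were wild type and the cells primary, per the labels. The 4 groups of 2 libraries each were CD8 T cells co-cultured with ILC2s for 3 days at 5:1, CD8 T cells cultured alone, ILC2s co-cultured with CD8 T cells, and ILC2s cultured alone (treatment labelled Untreated), all sorted by flow cytometry before RNA extraction. The sources used here give neither the age of the mice nor the number behind a library, and nothing says that replicates came from separate cultures, so p-values measure only the spread between these libraries, which may be technical.

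Cells that are damaged or activated release ATP and NAD. ATP opens the P2X7 channel and is otherwise cut stepwise by CD39 (Entpd1) to AMP and by CD73 (Nt5e) to adenosine, which acts on lymphocytes through an adenosine receptor that raises cAMP (Adora2a) and leaves the outside through the transporter ENT1 (Slc29a1) or by deamination (Ada). Extracellular NAD is consumed by CD38 and by the mouse ADP-ribosyltransferase ARTC2.2 (Art2b), which modifies surface proteins of mouse T cells, P2X7 among them, and can open that channel without ATP.

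Library totals ran from 48072595 to 67076905 reads, and no value in either table is 0, so a gene with 0 reads in any library of a table is not listed there. In the CD8 T cell libraries all 14 T cell markers were listed, and they summed to 7622 and 7577 CPM (counts scaled by the library total) co-cultured and to 6083 and 6240 CPM alone. Of these 14 markers 6 were called higher and 5 lower co-cultured. Of 14 markers of stroma, endothelium and epithelium 6 were listed there, without Col1a2, Col3a1, Pdgfra, Dcn, Fn1 and Sparc. Those 6 summed to 169.1 and 165.3 CPM co-cultured and to 55.7 and 59.1 CPM alone, with 4 called higher and 2 lower. Of 17 macrophage and monocyte markers 9 were listed there, with 2 called higher and 4 lower. These summed to 57.85 and 56.47 CPM co-cultured and to 135.8 and 124.7 CPM alone. The ILC2 libraries labelled alone stood apart from those labelled co-cultured. There 14 of 15 ILC2 markers were listed, and they summed to 9966 and 9658 CPM co-cultured against 3903 and 3879 CPM alone. All 14 T cell markers were listed and summed to 283.7 and 331.5 CPM co-cultured against 1894 and 1767 CPM alone, with Cd8a at 6.09 and 6.76 CPM against 249.4 and 258.2 CPM. The 4 markers of CD4 and regulatory T cells went the other way as a sum. They had 1754 and 1714 CPM co-cultured against 410.4 and 419.7 CPM alone, with 2 called higher and 2 lower. Of 17 macrophage and monocyte markers 8 were listed, at 20.1 and 35.9 CPM co-cultured against 2565 and 3082 CPM alone, while C1qa, C1qb, C1qc, Itgam, Mrc1, Fcgr1, Marco and Trem2 had 0 reads in at least 1 library and were not listed. Of 14 markers of stroma, endothelium and epithelium 11 were listed, at 358.8 and 351.8 CPM co-cultured against 6550 and 7104 CPM alone, with 2 called higher and 9 lower. Genes of handling stress, 10 of 10 listed, summed to 2589 and 2694 CPM in ILC2s co-cultured against 1559 and 1540 CPM alone. In CD8 T cells they summed to 1754 and 1781 CPM co-cultured against 1543 and 1615 CPM alone. Single stress genes went both ways. The edgeR fit called 3 higher and 6 lower in ILC2s, and 4 higher and 4 lower in CD8 T cells. Groups are named by their labels throughout. In bulk RNA, fewer cells of a type and less RNA per cell cannot be told apart, and the part of these other cells and of the stress genes in the values below was not tested.

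**Figure D1:**
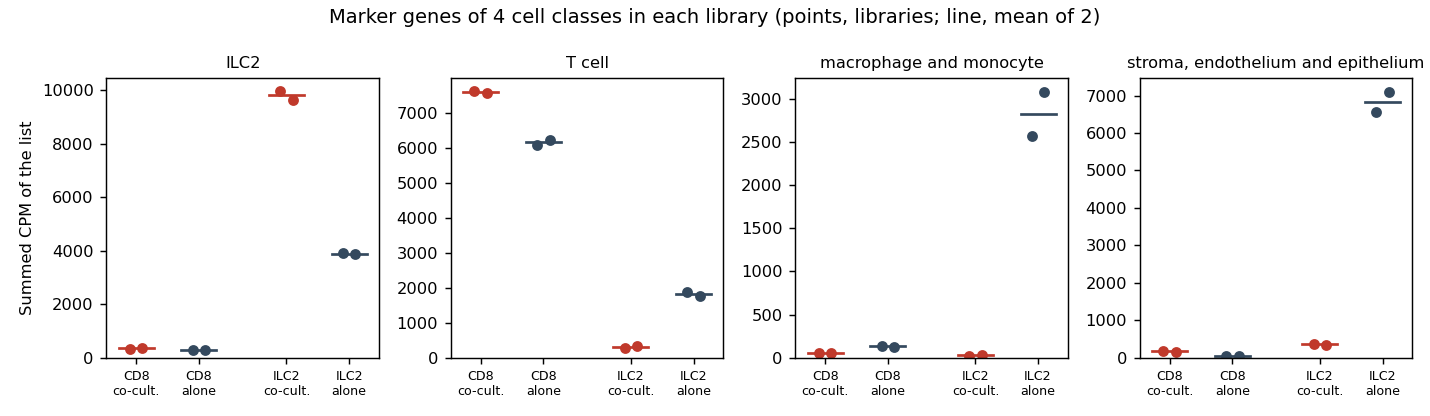
Summed CPM of 4 marker lists (vertical axis, linear from 0) in the 8 libraries, with co-cultured left of alone for each cell type. Macrophage and stroma markers were at 2565 CPM or more in the ILC2 libraries labelled alone and at 358.8 CPM or less in those labelled co-cultured.

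P2rx7, the ATP-gated channel gene, had 106.7 and 104.4 CPM in CD8 T cells co-cultured, against 5.58 and 3.31 CPM in CD8 T cells alone. Both co-cultured libraries lay far above both alone libraries, a log2 change of 4.50 (SE 0.159) in edgeR's fit across all genes and the largest of the 8. In ILC2s P2rx7 stood at 5.20 and 6.26 CPM co-cultured, against 15.9 and 20.1 CPM alone. There the co-cultured libraries were the lower ones and the groups did not overlap (log2 change -1.44, SE 0.177). The ILC2 libraries alone, which carry T cell markers, had more P2rx7 CPM than the CD8 T cell libraries alone. Mouse P2rx7 has transcript variants with different first exons, which counts per gene symbol do not separate.

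The gene lies on chromosome 5 at 122643911 to 122691432 (plus strand, GENCODE M21 on GRCm38, the assembly of mm10). RefSeq's promoter table holds 2 start sites for it, shown because this gene changed most among the 8 in CD8 T cells. Each sequence covers 250 bases before to 50 bases after a start, and capitals mark a match to 1 of the 7 motifs searched. The first start is at chr5:122643677-122643976 and the second at chr5:122650133-122650432, both on the plus strand of GRCm38.p6.
P2rx7 start 1: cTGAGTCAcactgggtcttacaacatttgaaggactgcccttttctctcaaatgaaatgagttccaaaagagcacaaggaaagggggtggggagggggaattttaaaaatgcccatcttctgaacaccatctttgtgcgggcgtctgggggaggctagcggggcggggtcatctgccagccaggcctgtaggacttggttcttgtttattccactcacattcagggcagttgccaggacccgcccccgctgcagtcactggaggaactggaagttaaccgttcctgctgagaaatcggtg
P2rx7 start 2: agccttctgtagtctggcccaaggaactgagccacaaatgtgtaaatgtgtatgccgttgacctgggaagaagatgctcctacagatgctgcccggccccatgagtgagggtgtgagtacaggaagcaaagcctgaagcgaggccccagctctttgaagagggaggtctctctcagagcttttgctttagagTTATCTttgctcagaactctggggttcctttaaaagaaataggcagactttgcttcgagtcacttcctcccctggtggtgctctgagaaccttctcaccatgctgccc

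The motifs, searched on both strands in all 32851 promoters of that length in RefSeq's table for GRCm38.p6, were TGACGTCA (CRE, in 1.79% of promoters), TGANTCA (AP-1, 7.81%), TTCNNNGAA (STAT, 8.30%), TGTGGT (RUNX, 16.8%), AGATAA (the letters of GATA factors, 11.2%), CCGGAAGT (ETS, 3.89%) and the retinoid receptor element DR5 (0.00913%). No spelled motif is contained in another. These matches are descriptions of letters and not of binding. The first P2rx7 window held 1 AP-1 match, which starts 249 bases before the start site. The second held 1 GATA match, 58 bases before it. Of the 8 genes 7 were in that table.

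P2rx4, the gene of a related ATP-gated channel, lies next to P2rx7, with 16.1 kb and no other protein-coding gene between them. It is not among the 8 and was tested. P2rx4 had 127.5 and 109.5 CPM in CD8 T cells co-cultured, against 36.9 and 35.4 CPM alone, and rose (log2 change 1.63, SE 0.0866, edgeR adjusted p = 1.3e-08). In ILC2s it stood at 71.3 and 71.2 CPM co-cultured, against 76.2 and 78.5 CPM alone (log2 change 0.096, SE 0.119, edgeR adjusted p = 0.49). Its changes in the cell types differed by 1.70 on the log2 scale, CD8 T cells minus ILC2s (edgeR interaction adjusted p = 7.6e-08). The other P2X genes were hardly represented: P2rx1 was listed only for ILC2s, P2rx3 only for CD8 T cells, and P2rx2, P2rx5 and P2rx6 in neither table.

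**Figure D2:**
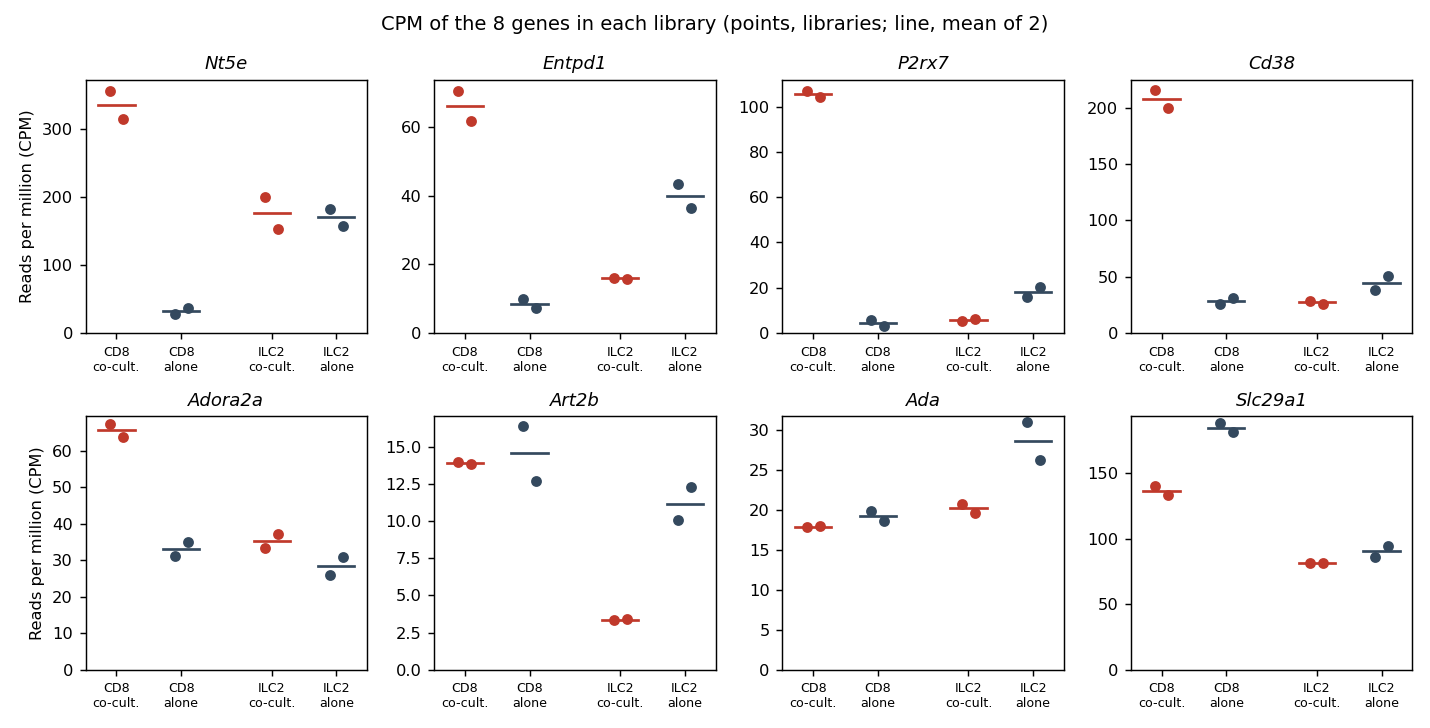
CPM of each of the 8 genes (vertical axes, linear from 0) in the 8 libraries, with co-cultured (red) left of alone (dark) for CD8 T cells and for ILC2s. Nt5e, Entpd1, P2rx7 and Cd38 in CD8 T cells co-cultured stand above all other libraries, P2rx7 at 104.4 CPM or more against 20.1 CPM or less elsewhere.

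Entpd1, whose product CD39 cuts ATP and ADP to AMP, had 70.6 and 61.8 CPM in CD8 T cells co-cultured, against 9.84 and 7.22 CPM alone. The co-cultured libraries were 7.76-fold higher by mean CPM, without overlap (log2 change 2.88, SE 0.128). In ILC2s it had 15.9 and 15.9 CPM co-cultured, against 43.5 and 36.5 CPM alone, so the order was the opposite one (log2 change -1.12, SE 0.14).

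Nt5e, whose product CD73 cuts AMP to adenosine, had 355.8 and 314.5 CPM in CD8 T cells co-cultured, against 27.5 and 37.3 CPM alone. The mean was 335.1 ± 29.2 CPM co-cultured and 32.4 ± 6.91 CPM alone (SD, n = 2), a log2 change of 3.29 (SE 0.127). In ILC2s Nt5e had 200.2 and 152.7 CPM co-cultured, against 182.8 and 157.1 CPM alone. These groups overlapped (log2 change 0.27, SE 0.156), and the change was -0.01 without co-cultured replicate 1 and 0.49, then called higher, without co-cultured replicate 2. When each library was scaled to the summed markers of its own cell type, a scaling chosen after the data were seen, the ILC2 change was -1.28. The ILC2 marker list includes Il5, Il13, Areg and Arg1, and 12 of its 14 genes tested were called higher co-cultured. That scaling cannot tell a change in the share of ILC2s from a change of the marker genes themselves. The same limit holds in CD8 T cells, where 6 of the 14 T cell markers were called higher and 5 lower. By CPM Nt5e was high in ILC2s of either culture, and CD8 T cells reached and passed that level in co-culture.

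The genes of these paired enzymes lie on chromosome 9 at 88327197 to 88372092 (Nt5e, plus strand) and on chromosome 19 at 40612366 to 40741602 (Entpd1, plus strand). Their first RefSeq promoters, at chr9:88327359-88327658 and chr19:40612116-40612415, are shown because the enzymes act in sequence and changed alike in CD8 T cells. Neither window holds any of the 7 motifs, so no letter is in capitals. A second RefSeq start of Entpd1, at chr19:40659520-40659819, is not shown, and its window holds 1 RUNX match. In the windows shown 71.0% and 64.0% of bases are G or C, against a median of 52.7% over all promoters in the table.
Nt5e: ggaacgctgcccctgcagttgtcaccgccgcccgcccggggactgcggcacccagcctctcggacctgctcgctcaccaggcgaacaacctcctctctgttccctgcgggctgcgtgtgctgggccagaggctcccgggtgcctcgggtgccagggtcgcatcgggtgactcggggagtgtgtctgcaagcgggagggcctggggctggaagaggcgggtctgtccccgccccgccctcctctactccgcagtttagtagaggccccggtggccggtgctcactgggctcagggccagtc
Entpd1: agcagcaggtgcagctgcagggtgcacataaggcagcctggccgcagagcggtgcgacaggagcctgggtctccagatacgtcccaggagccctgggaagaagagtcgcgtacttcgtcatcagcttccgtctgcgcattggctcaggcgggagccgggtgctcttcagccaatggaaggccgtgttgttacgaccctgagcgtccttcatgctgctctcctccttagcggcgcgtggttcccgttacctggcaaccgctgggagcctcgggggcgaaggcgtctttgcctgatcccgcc

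Other enzymes and channels upstream of adenosine moved in both directions. Enpp1, which cuts ATP to AMP and pyrophosphate, had 28.8 and 25.3 CPM in CD8 T cells co-cultured, against 15.7 and 16.6 CPM alone, and rose (log2 change 0.67, SE 0.104, edgeR adjusted p = 1.1e-04). In ILC2s it fell to 4.91 and 4.97 CPM co-cultured, against 25.4 and 24.7 CPM alone (log2 change -2.13, SE 0.151, edgeR adjusted p = 2.4e-07). Acpp, an acid phosphatase that can also cut AMP, followed the same directions with log2 changes of 1.63 (SE 0.164) and -2.88 (SE 0.153), from low levels in CD8 T cells (7.87 and 7.99 CPM co-cultured, against 2.28 and 2.58 CPM alone). Of the ectonucleotidase list outside the 8, 2 of 4 genes tested rose and 2 fell in CD8 T cells, and 3 of 5 fell with none rising in ILC2s. Among all genes 30.2% rose and 30.7% fell in CD8 T cells, and 31.8% rose and 34.4% fell in ILC2s. The 2 falls in CD8 T cells, of Entpd2 and Alpl, rest on 43 to 120 reads a library.

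Panx1, a channel that releases ATP, rose in CD8 T cells to 169.8 and 171.6 CPM co-cultured, against 85.6 and 92.0 CPM alone (log2 change 0.86, SE 0.0736, edgeR adjusted p = 5.5e-07). In ILC2s it stood at 62.4 and 63.6 CPM against 72.2 and 62.6 CPM, which did not pass (log2 change 0.117, SE 0.124). The vesicular nucleotide transporter gene Slc17a9 rose in both cell types (log2 changes 0.39 in CD8 T cells and 1.10 in ILC2s), but scaled to the markers of each cell type the changes were 0.16, not called, in CD8 T cells and -0.45 in ILC2s. Of the anion channel subunits, Lrrc8c rose in CD8 T cells (0.83, SE 0.0763) and Lrrc8b fell in ILC2s (-1.48, SE 0.158), while Lrrc8a and Lrrc8d passed in neither cell type. The scramblase gene Ano6 rose in CD8 T cells (0.52, SE 0.0863) and fell in ILC2s (-0.76, SE 0.157), and the caspase-activated scramblase gene Xkr8 fell in ILC2s (-1.78, SE 0.217). Gja1, which encodes the connexin 43 hemichannel, stood at 5.24 and 4.49 CPM in ILC2s co-cultured, against 218.8 and 225.1 CPM alone, beside the stroma markers given above. In the whole list 4 of 9 rose and 1 fell in CD8 T cells, and 1 of 9 rose and 4 fell in ILC2s. That is 55.6% called in each cell type, against 60.9% of all genes in CD8 T cells and 66.3% in ILC2s.

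Adora2a, the gene of the main adenosine receptor of T cells, had 67.4 and 63.8 CPM in CD8 T cells co-cultured, against 31.2 and 35.1 CPM alone. The co-cultured libraries were 1.98-fold higher by mean CPM (log2 change 0.91, SE 0.0869). In ILC2s it had 33.5 and 37.1 CPM co-cultured, against 26.0 and 30.8 CPM alone, with the co-cultured libraries slightly higher (log2 change 0.53, SE 0.137). This is the only one of the 8 genes whose groups did not overlap and were higher co-cultured in both cell types, but the ILC2 direction depends on the scaling: scaled to the ILC2 markers it was -1.02, and it was not called without alone replicate 1 (0.41). Adora2a lies on chromosome 10 at 75316877 to 75334784, plus strand.

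Adora2b, the gene of a related receptor of lower affinity, was tested and fell in both cell types. It had 14.6 and 15.3 CPM in CD8 T cells co-cultured, against 24.3 and 22.8 CPM alone (log2 change -0.73, SE 0.101, edgeR adjusted p = 3.7e-05). In ILC2s it had 21.8 and 20.2 CPM co-cultured, against 49.8 and 56.0 CPM alone (log2 change -1.12, SE 0.137, edgeR adjusted p = 2.2e-05).

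Slc29a1, which encodes the equilibrative nucleoside transporter ENT1, had 139.9 and 133.4 CPM in CD8 T cells co-cultured, against 187.9 and 181.6 CPM alone. In the fit reported here it was the only one of the 8 called lower in these cells (log2 change -0.52, SE 0.069). Scaled to the T cell markers, Slc29a1 (-0.74), Ada (-0.41) and Art2b (-0.37) were all called lower there. In ILC2s Slc29a1 had 81.8 and 81.7 CPM co-cultured, against 85.7 and 94.7 CPM alone. The co-cultured ILC2 libraries were lower as CPM, while the log2 change of the fit, which scales libraries by edgeR's trimmed mean of M-values (TMM), was 0.07 (SE 0.122), and -1.48 when scaled to the ILC2 markers. Ada, the adenosine deaminase gene, had 17.9 and 17.9 CPM in CD8 T cells co-cultured, against 19.9 and 18.6 CPM alone (log2 change -0.18, SE 0.101). In ILC2s Ada had 20.7 and 19.7 CPM co-cultured, against 31.0 and 26.2 CPM alone (log2 change -0.29, SE 0.142). Ada was lower co-cultured without overlap in both cell types and was not called in the fit reported here. In ILC2s it was called lower with library totals only (-0.50) and without co-cultured replicate 1 (-0.40). Slc29a1 lies on chromosome 17 at 45585200 to 45599606 and Ada on chromosome 2 at 163726584 to 163750239, both on the minus strand.

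The concentrative purine transporter gene Slc28a2, outside the 8, had 101.0 and 94.5 CPM in CD8 T cells co-cultured, against 36.9 and 43.2 CPM alone, and rose (log2 change 1.21, SE 0.091, edgeR adjusted p = 2.0e-07). In ILC2s it fell to 2.60 and 1.89 CPM co-cultured, against 20.2 and 17.5 CPM alone (log2 change -2.85, SE 0.206, edgeR adjusted p = 2.9e-07). The lysosomal transporter gene Slc29a3 passed only in ILC2s, where it fell (-0.81, SE 0.151). Of the purine salvage genes tested, 12 of 19 fell and 2 rose in CD8 T cells, where 30.7% of all genes fell and 30.2% rose. In ILC2s 13 of 18 fell and 2 rose, where 34.4% of all genes fell and 31.8% rose. Among them Ak1, an adenylate kinase gene, stood at 0.805 and 0.541 CPM in ILC2s co-cultured, against 77.7 and 96.4 CPM alone (log2 change -6.79, SE 0.227).

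Cd38, whose product cleaves NAD and makes cyclic ADP-ribose, had 215.5 and 200.1 CPM in CD8 T cells co-cultured, against 25.4 and 31.0 CPM alone. The difference was 7.38-fold by mean CPM, without overlap (log2 change 2.80, SE 0.0998). In ILC2s Cd38 had 28.7 and 25.7 CPM co-cultured, against 38.5 and 50.2 CPM alone. The co-cultured ILC2 libraries were lower (log2 change -0.49, SE 0.158), and the change was no longer called at -0.28 without alone replicate 2 or at -0.38 without co-cultured replicate 2.

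Cd38 lies on chromosome 5 at 43868553 to 43912375, plus strand. Its promoter at chr5:43868559-43868858 is shown as that of the NAD-cleaving gene that was high in co-cultured CD8 T cells. It held 1 GATA match, 31 bases before the start site, in capitals.
Cd38: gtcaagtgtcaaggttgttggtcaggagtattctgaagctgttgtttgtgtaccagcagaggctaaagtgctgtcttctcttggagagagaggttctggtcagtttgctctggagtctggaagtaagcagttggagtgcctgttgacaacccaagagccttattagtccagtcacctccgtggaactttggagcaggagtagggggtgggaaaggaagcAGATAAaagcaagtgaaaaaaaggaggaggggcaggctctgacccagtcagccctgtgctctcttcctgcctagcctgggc

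Bst1 (CD157), a relative of Cd38 with the same enzyme activities, lies 24.6 kb from it with no other protein-coding gene between them. It had 117.0 and 124.0 CPM in CD8 T cells co-cultured, against 18.3 and 22.3 CPM alone, and rose (log2 change 2.49, SE 0.101, edgeR adjusted p = 1.6e-09). In ILC2s it fell to 0.908 and 1.69 CPM co-cultured, against 24.4 and 24.0 CPM alone (log2 change -4.01, SE 0.23, edgeR adjusted p = 4.4e-08). The changes differed by 6.66 (edgeR interaction adjusted p = 2.9e-12). Exons of Bst1 overlap those of Fbxl5 on the opposite strand, and the strand setting of the counting is not given in the sources used here, so reads of the 2 genes cannot be told apart where they overlap. Fbxl5 itself had 371.7 and 339.5 CPM in CD8 T cells co-cultured, against 88.1 and 101.8 CPM alone, and in ILC2s 121.9 and 107.8 CPM co-cultured, against 144.7 and 148.2 CPM alone.

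**Figure D3:**
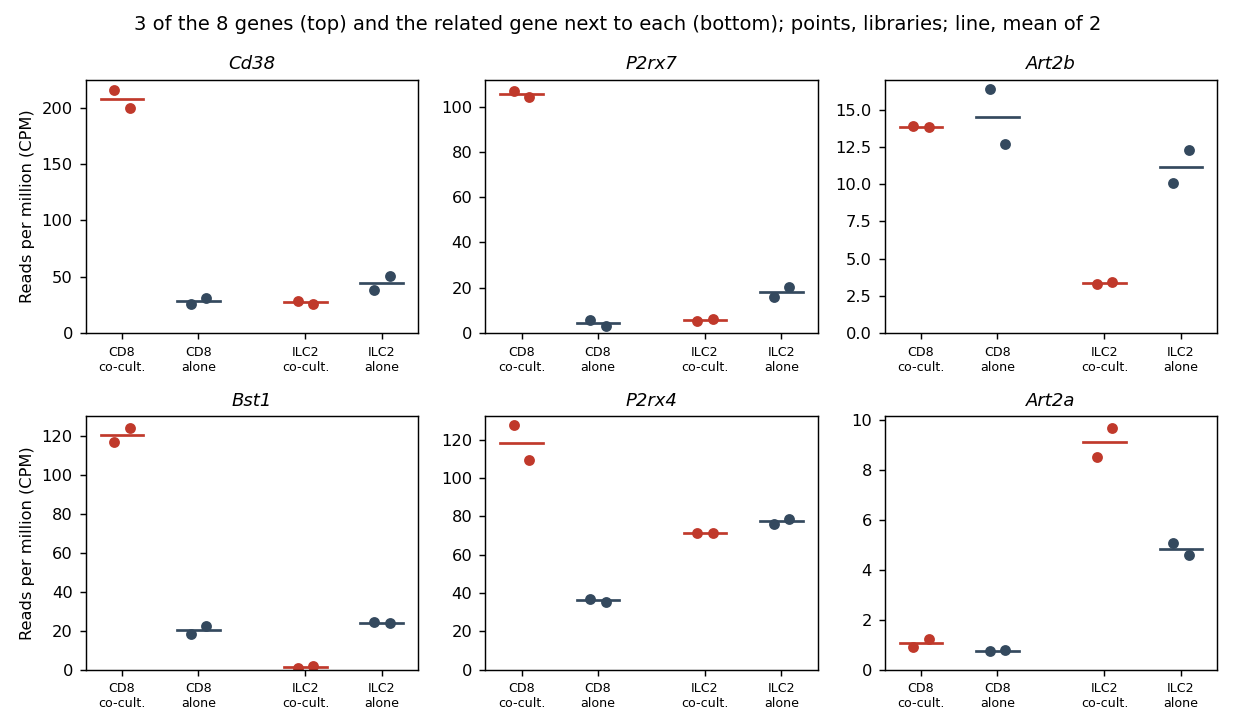
CPM (vertical axes, linear from 0) of Cd38, P2rx7 and Art2b, and below each the related gene beside it, Bst1, P2rx4 and Art2a, in the 8 libraries with co-cultured left of alone. In CD8 T cells Cd38 and Bst1, and P2rx7 and P2rx4, were each higher co-cultured, while Art2b and Art2a went opposite ways in ILC2s.

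Art2b, whose product attaches ADP-ribose from NAD to surface proteins, had 13.9 and 13.8 CPM in CD8 T cells co-cultured, against 16.4 and 12.7 CPM alone. The co-cultured values lay between the alone values (log2 change -0.15, SE 0.13), and without alone replicate 1 the change was 0.04. In ILC2s Art2b had 3.32 and 3.41 CPM co-cultured, against 10.1 and 12.3 CPM alone, without overlap (log2 change -1.51, SE 0.187). Its paralogue Art2a lies 16.1 kb away on the same strand of chromosome 7, and GENCODE annotates it as a polymorphic pseudogene (Art2a-ps). Art2a had 8.52 and 9.71 CPM in ILC2s co-cultured, against 5.09 and 4.62 CPM alone, and rose (log2 change 1.12, SE 0.173, edgeR adjusted p = 1.4e-04), though scaled to the ILC2 markers the change was -0.42. The genes are similar and how shared reads were assigned is not given in the sources used here, so the split between them is uncertain. Art2b lies at 101576970 to 101585600, minus strand.

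Of the other genes that use or undo ADP-ribosylation, Art4 rose in CD8 T cells (log2 change 1.52, SE 0.12) to 19.9 and 20.2 CPM co-cultured, against 6.95 and 6.24 CPM alone. Adprh, which removes ADP-ribose from arginine, had 69.0 and 78.4 CPM in ILC2s co-cultured, against 178.6 and 199.4 CPM alone, and fell (-1.15, SE 0.123). Adprhl2, which removes it from serine, was at the threshold in ILC2s (0.33, SE 0.132, edgeR adjusted p = 0.043) and did not pass when co-cultured replicate 2 or alone replicate 1 was left out. Neither Adprh nor Adprhl2 passed in CD8 T cells.

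Counted over the 8, edgeR's fit called 5 higher, 1 lower and 2 neither in CD8 T cells, where 60.9% of the 15948 genes tested were called, 30.2% higher and 30.7% lower. The median log2 change of the 8 was 1.85, against -0.01 over all genes tested. In ILC2s 1 was called higher, 4 lower and 3 neither, where 66.3% of 16739 genes were called, 31.8% higher and 34.4% lower. The median was -0.39, against -0.01 over all genes. By CPM alone, 5 were higher and 2 lower without overlap in CD8 T cells (41.5% and 36.4% of all genes in the table, 78.0% in either direction) and 1 was higher and 6 lower in ILC2s (34.2% and 46.4%, 80.5% in either direction). The contrast was used in choosing the 8, so nothing is read from these counts. All 8 passed the filter on low counts in both tables.

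**Figure D4:**
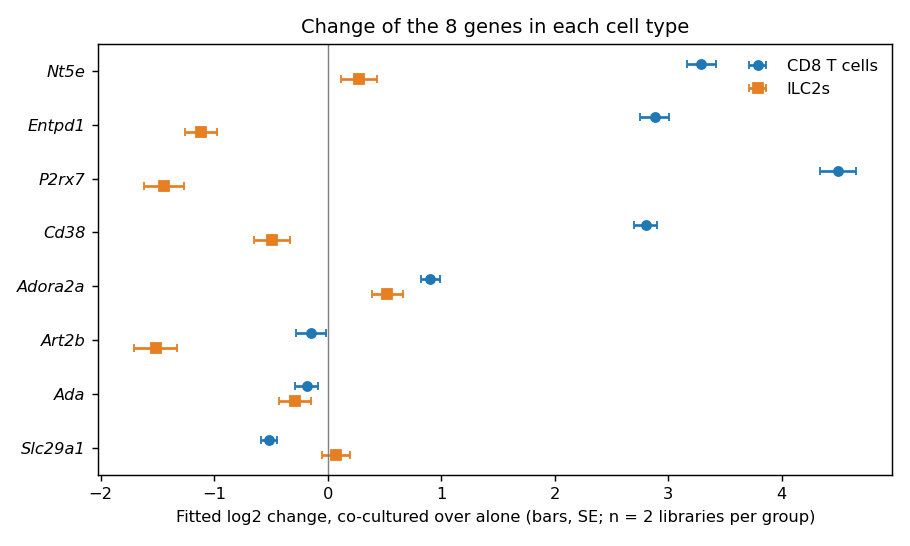
Fitted log2 change, co-cultured over alone (horizontal axis), of the 8 genes in CD8 T cells (circles) and ILC2s (squares), with bars of 1 SE from edgeR's fit. Entpd1, P2rx7 and Cd38 lie right of 0 in CD8 T cells and left of it in ILC2s, from 4.50 to -1.44 for P2rx7.

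Levels of different genes were compared per kb of exon (CPM per kb of the union of GENCODE M21 exons). Co-cultured CD8 T cells had the order Cd38 (53.4), Nt5e (39.0), Slc29a1 (34.1), Adora2a (21.4), P2rx7 (17.7), Entpd1 (11.9), Ada (8.94) and Art2b (4.91 CPM per kb). Among CD8 T cells alone Slc29a1 led with 46.1 CPM per kb, Adora2a followed with 10.8, Nt5e stood at 3.76, and P2rx7 was last with 0.745. In neither CD8 group did neighbours in the order overlap between their 2 libraries. In ILC2s co-cultured Nt5e (20.5) and Slc29a1 (20.4 CPM per kb) came first, with overlapping values, and P2rx7 last (0.960). In ILC2s alone Slc29a1 led with 22.5 CPM per kb and P2rx7 was again last with 3.02, and Cd38 (11.4) and Adora2a (9.27) overlapped.

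The patterns most like those of the 8 over the 8 libraries were found by the root mean square difference in log2(CPM + 0.5), each gene centred on its own mean, among 10202 genes with a mean of 10 CPM in at least 1 group. With 4 groups of 2 libraries this measures mainly the pattern of the group means. Nt5e lay nearest to Apol7e (0.272), Smg6 (0.303) and Hic1 (0.319). Gcnt1 (0.377) and Vwa1 (0.417) were among the genes near Entpd1. P2rx7 lay nearest to the granzyme A gene Gzma (0.494), then Gm17021 and Filip1. Gzma averaged 1185 CPM in CD8 T cells co-cultured and 129.3 CPM alone, and 126.2 CPM in ILC2s co-cultured and 390.8 CPM alone. Cd38 lay nearest to Trib2 (0.177), then Gnb5 and Arel1. Nearer partners existed for the flatter genes, such as Zfp667 for Adora2a (0.072), Kif5b for Ada (0.063), Uqcrc2 for Slc29a1 (0.053) and Slc25a17 for Art2b (0.120). Among the 8 themselves, the pairs most alike were Art2b and Slc29a1 (0.549), Adora2a and Slc29a1 (0.554), and Nt5e and Entpd1 (0.644).

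Beyond the 8, 127 symbols of the same pathway were listed by role in 12 groups, 3 of them alternative names of listed genes. Of these 101 were tested in CD8 T cells, and 35 rose, 29 fell and 37 did not pass, 63.4% called against 60.9% of all genes, with a median log2 change of 0.08 against -0.01. In ILC2s 107 were tested, and 35 rose, 46 fell and 26 did not pass, 75.7% called against 66.3% of all genes, with a median of -0.19 against -0.01. The share in CD8 T cells was near that of all genes.

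Nucleotide receptors of the P2Y family were low in CD8 T cells. P2ry12, an ADP receptor gene, had 4.29 and 4.80 CPM co-cultured, against 2.01 and 3.01 CPM alone, and P2ry14, a UDP-glucose receptor gene, had 1.95 and 2.19 CPM, against 3.76 and 2.87 CPM. These passed in opposite directions (log2 changes 0.77 and -0.76), and each was no longer called without alone replicate 1. P2ry2, for ATP and UTP, passed lower in CD8 T cells on 5 to 24 reads a library and was not called without alone replicate 2 or without co-cultured replicate 1. P2ry1 and P2ry6 were not listed there.

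In ILC2s 5 of 6 P2Y genes tested fell, against 34.4% of all genes, beside the macrophage and stroma markers given above. P2ry14 had 8.38 and 10.3 CPM co-cultured, against 26.9 and 29.0 CPM alone (log2 change -1.37, SE 0.148), P2ry2 changed by -2.11 (SE 0.184) and P2ry12 by -1.22 (SE 0.248). P2ry6, a UDP receptor gene, had 9.98 and 14.9 CPM alone and only 2 and 3 reads in the co-cultured libraries, so no fold is given. P2ry1, for ADP, had 5.43 and 6.82 CPM co-cultured, against 8.53 and 8.14 CPM alone, and did not pass (-0.23, SE 0.176). Exons of P2ry12 overlap those of Med12l on the opposite strand. Med12l had 18.8 and 15.6 CPM in ILC2s co-cultured, against 5.75 and 4.08 CPM alone, the opposite direction to P2ry12 there. It had 8.78 and 7.11 CPM in CD8 T cells co-cultured, against 2.30 and 3.33 CPM alone.

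**Figure D5:**
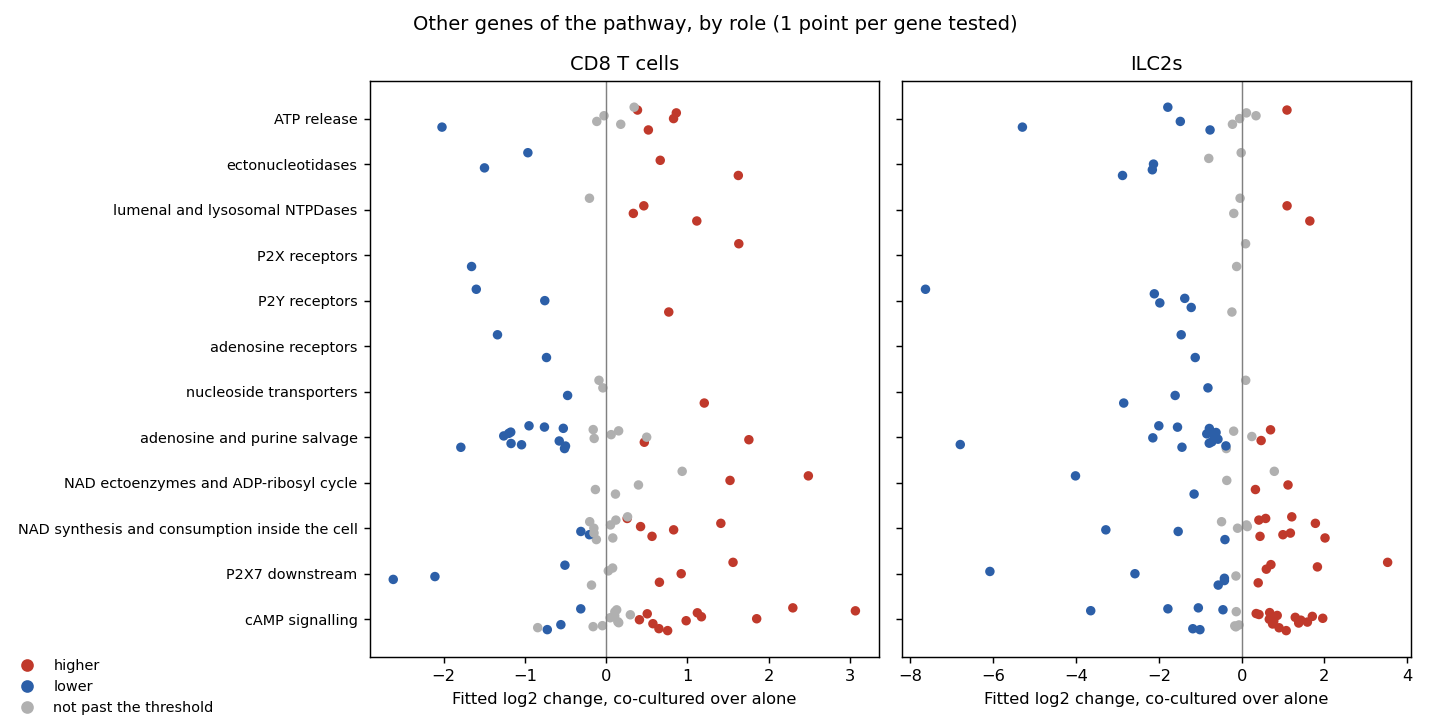
Fitted log2 change, co-cultured over alone (horizontal axes, which differ in range), of each other pathway gene tested, by role, in CD8 T cells (left) and ILC2s (right), coloured by edgeR call at adjusted p under 0.05. In CD8 T cells 35 of 101 rose and 29 fell, and in ILC2s 35 of 107 rose and 46 fell; the leftmost ILC2 point, P2ry6, rests on 2 and 3 reads in the co-cultured libraries.

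Of 24 cAMP signalling genes tested in CD8 T cells 11 rose and 3 fell (median log2 change 0.23), and of 25 in ILC2s 15 rose and 6 fell (median 0.67). Among all genes 30.2% rose and 30.7% fell in CD8 T cells, and 31.8% rose and 34.4% fell in ILC2s. Scaled to the T cell markers, 10 of the 24 were called higher and 6 lower in CD8 T cells (median 0.003). Scaled to the ILC2 markers, 1 of the 25 was called higher and 19 lower in ILC2s (median -0.88), so the 15 rises there did not hold under that scaling. The largest changes in CD8 T cells were rises of Prkar1b, a regulatory subunit of protein kinase A, to 18.3 and 17.5 CPM co-cultured, against 1.63 and 2.38 CPM alone (log2 change 3.07, SE 0.174), and of Rapgef3, a cAMP-activated exchange factor (2.30, SE 0.181). Both fell in ILC2s (-3.64, SE 0.288, and -1.04, SE 0.309), and Rapgef3 was not called there without alone replicate 1.

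Of the genes downstream of P2X7, 3 of 9 rose and 3 fell in CD8 T cells, and 5 of 11 rose and 5 fell in ILC2s. These shares are 66.7% called in CD8 T cells and 90.9% in ILC2s, against 60.9% and 66.3% of all genes. Casp1 and Casp4, the genes of inflammatory caspases, fell in CD8 T cells (-2.62, SE 0.18, and -2.11, SE 0.173), Casp1 to 1.99 and 1.46 CPM co-cultured, against 10.4 and 9.74 CPM alone. They also fell in ILC2s (-0.41 for both), but neither was called there without alone replicate 1 or without co-cultured replicate 2. Txnip, which can bind the NLRP3 inflammasome, rose in ILC2s to 2325 and 2175 CPM co-cultured, against 169.9 and 282.7 CPM alone (3.53, SE 0.213), and in CD8 T cells (1.56, SE 0.0797). Il1b, the interleukin-1 beta gene and a macrophage product, was listed only for ILC2s, at 0.309 and 0.791 CPM co-cultured, against 41.4 and 44.8 CPM alone. Of 15 genes tested for NAD synthesis and use inside the cell, 5 rose and 2 fell in CD8 T cells, and 8 rose and 3 fell in ILC2s, led there by the mitochondrial NAD kinase gene Nadk2 (2.01, SE 0.131). This is 46.7% called in CD8 T cells and 73.3% in ILC2s, against 60.9% and 66.3% of all genes. Scaled to the markers of each cell type, 3 were called higher and 4 lower in CD8 T cells, and 1 higher and 12 lower in ILC2s.

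An interaction term, fitted to the genes present in both tables, compared the changes of the cell types. Of 99 other pathway genes 61 differed, 61.6% against 53.6% of all 15532 genes tested. The change was the more positive one in CD8 T cells for 42 of them and in ILC2s for 19 (32.6% and 21.0% of all genes), and over all genes in the same fit the median difference was 0.12. Scaled to the markers of each cell type, that median was 1.31 and 84 pathway genes differed. By calls in each cell type, 17 rose in both, 21 fell in both, 10 rose in CD8 T cells and fell in ILC2s, and 4 fell in CD8 T cells and rose in ILC2s. Such pairs of calls were not counted over all genes, so nothing is read from them. For the 8 genes themselves the differences of the changes are described only. They were 6.09 for P2rx7 (SE 0.267), 4.15 for Entpd1, 3.45 for Cd38, 3.17 for Nt5e, 1.53 for Art2b, 0.54 for Adora2a, 0.26 for Ada and -0.43 for Slc29a1, CD8 T cells minus ILC2s. Under the marker scaling Slc29a1 turned to 0.76 and the other 7 kept their sign.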

How the data were processed

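Bulk RNA of 8 libraries (4 groups of 2) was sequenced from SMART-Seq v4 libraries, per the labels' protocols. The authors deposited 2 count tables, 1 per cell type, holding unnormalized integers with 1 line per gene symbol, per the file headers. Alignment to mm10 with HISAT2 2.1.0 is listed in the submitters' processing notes, as are StringTie 2.1.3b, SAMtools 1.9 and Trimmomatic 0.38. Annotation, strand setting and filters: not given in the sources used here. Replicates had a chi-square of 13.2 to 27.3 per gene, above sampling noise, so none was treated as the same library deposited again. This does not show that they are independent cultures.

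Each table was fitted in R 4.3.3 by edgeR 4.0.16, with TMM scaling after filterByExpr, the quasi-likelihood test, and a threshold of 0.05 on Benjamini-Hochberg adjusted p over all genes tested. The SE is the log2 change over the square root of F. Residual degrees of freedom were 2 per table (prior 10.4 for CD8 T cells and 9.23 for ILC2s) and 4 for the interaction (prior 11.5). The 3 edgeR fits (each table and the interaction) were tested on simulated data in which few genes changed and all shared a common dispersion. In the real libraries most genes were called, so that test does not cover how the scaling behaves here. Alternatives used DESeq2 1.42.0, limma-voom (limma 3.58.1), other scalings and filters, a replicate block and leaving out each library.

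The 8 genes, the lists and the tests were chosen with earlier results of these data known. Other pathway genes were named where a surface gene reached a mean of 5 CPM in a group, or where an intracellular gene was among the 2 largest rises or falls past the threshold in a cell type. Promoters are from RefSeq (GRCm38.p6), exons from GENCODE M21. Plots were made in Python 3.11.15 with matplotlib 3.10.9.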

Additional observations from a re-analysis of the deposited data

Results flagged for a closer look

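The changes of 26 named pathway genes differed between the cell types by edgeR's interaction test, with adjusted p from 2.9e-12 to 0.015. The differences below are log2 changes of CD8 T cells minus those of ILC2s, and a positive value means a more positive change in CD8 T cells. Among ATP release and scramblase genes they were 0.90 for Panx1, 3.43 for Gja1, -0.55 for Slc17a9, 0.56 for Lrrc8a, 1.52 for Lrrc8b, 1.04 for Lrrc8c, 1.44 for Ano6 and 2.28 for Xkr8. Among enzymes and receptors they were 2.95 for Enpp1, 4.66 for Acpp, 1.70 for P2rx4, 2.15 for P2ry12, 0.78 for P2ry14 and 0.54 for Adora2b. Among transporters and NAD-related genes they were 0.93 for Slc29a3, 4.22 for Slc28a2, 6.66 for Bst1, 2.04 for Art4 and 1.42 for Adprh. Among intracellular genes they were 5.91 for Ak1, -2.05 for Casp1, -1.53 for Casp4, -1.78 for Nadk2, 6.87 for Prkar1b, 3.50 for Rapgef3 and -1.80 for Txnip. Scaled to the markers of each cell type, Slc17a9 turned to 0.64, and Casp4 was at -0.34 and no longer called. The other 24 kept their sign and call.

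In 3 of the 8 genes every co-cultured library was above every alone library in CD8 T cells and below in ILC2s. The differences of the changes were 4.15 for Entpd1, 6.09 for P2rx7 and 3.45 for Cd38. These differences were not tested, because the 8 genes were chosen on the same contrast. The ILC2 libraries labelled alone carry the T cell, macrophage and stroma markers given in the report.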

How the results depend on the processing

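Counts of called genes stayed within 1.5 times the reported ones with DESeq2, limma-voom, DESeq2 size factors, library totals only, other filters, a replicate block and each library left out. Pathway genes called ranged from 56 to 68 in CD8 T cells, from 71 to 82 in ILC2s and from 56 to 64 for the interaction over these settings, in which P2rx7 in CD8 T cells ranged from 4.17 to 4.90, Nt5e from 3.08 to 3.54, Entpd1 from 2.68 to 3.11 and Cd38 from 2.66 to 2.97. With a replicate block the counts were 63, 82 and 61. Same-numbered libraries did not deviate together (correlations of -0.002 in CD8 T cells and 0.068 in ILC2s, with 2 pairs each). Scaling each library to the markers of its own cell type, chosen after the data were seen, moved the median log2 change of all genes to -0.23 in CD8 T cells and to -1.56 in ILC2s (-0.22 in ILC2s with library totals only). By construction it lowers every ILC2 change, and 470 genes were then called higher and 13357 lower in ILC2s, 3 and 93 among the pathway genes. Pathway genes called were then 70 in CD8 T cells, 96 in ILC2s and 84 for the interaction, and P2rx7, Nt5e, Entpd1 and Cd38 in CD8 T cells were at 4.27, 3.07, 2.65 and 2.58. Of the 8 genes, 0 were then higher and 8 lower without overlap in ILC2s. The scaling turned the sign of ILC2 changes that had not been called, those of Nt5e (-1.28), Slc29a1 (-1.48), Panx1 (-1.43), Lrrc8d (-1.21) and P2rx4 (-1.45). It also turned those of Adora2a (-1.02), Slc17a9 (-0.45), Art2a (-0.42) and Adprhl2 (-1.21), which had been called higher. Adora2a in ILC2s was not called with library totals only or without alone replicate 1, and Cd38 in ILC2s not without alone replicate 2 or co-cultured replicate 2. The number of 2 libraries per group limits every spread given.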
